A study of Homo sapiens with 17 samples.

Results

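The 10 heat shock genes HSPA1A, HSPA1B, HSPA8, HSPH1, DNAJB1, HSP90AA1, HSP90AB1, HSPB1, HSPD1 and BAG3 were taken by name, and all 10 were among the 19222 genes of the 1 h TimeLapse sequencing (TL-seq) table. In TL-seq, cells take up 4-thiouridine (s4U), chemistry recodes the s4U in newly made RNA, and each recoded base is read as a T-to-C conversion. The cells were wild-type (WT) HEK-293T, a line of human embryonic kidney cells. In the 1 h experiment, 3 libraries came from cells given 500 µM s4U alone (untreated) and 3 from cells given 500 µM s4U with 1.8 µM emetine, an alkaloid that blocks the movement of ribosomes along mRNA. Another 1 untreated and 1 emetine library received no s4U. In the 2 h experiment, 3 groups of 3 libraries received no emetine, 1.8 µM or 240 µM, and their labels record 250 µM s4U. Emetine and s4U were given together, and the culture medium was changed 2 h before treatment in every group. Nothing in the labels says that replicates came from separate cultures on separate days, so p-values measure the spread between these libraries, which may be technical.

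Heat shock proteins are chaperones, which hold or refold proteins that have lost their shape. In the cytosol HSP70 binds exposed stretches of a client, J-domain proteins start its cycle, nucleotide exchange factors end it, and HSP90 receives some of the clients. Heat shock factor 1 (HSF1) raises many of these genes under stress by binding repeats of the sequence nGAAn upstream of their start sites, while the constitutive forms are abundant in unstressed growing cells. The name cytosolic fits 9 of the 10 genes: HSPD1 encodes HSP60, the chaperonin of the mitochondrial matrix.

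Reads given to a gene numbered 22246279 to 40018063 per library. All 8 markers of HEK-293T cells were above 1 CPM (counts scaled to library size) in every 1 h library, while of 7 markers of blood, liver, epithelial and connective tissue cells 3 were at 0 in every library and 6 stayed below 1 CPM. Replicate 3 of the emetine libraries stood apart. The deviations of its genes from the group mean had an SD of 0.256 (log2) and a Spearman correlation of 0.69 with transcript length across 10060 genes, against 0.0842 to 0.152 and -0.64 to 0.17 in the other 5 s4U libraries. Where its removal changed the call of a member or moved a called value by over 1.5 times, the value without it is given.

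HSF1-type repeats of at least 2 units were found in the promoters of 8 of the 10 genes, among them HSPA8 and HSPA1B, the members that fell in level. Such repeats were also in 13.5% of all promoter windows, a share counted by window and not by gene. None of the other members passed the test of level, and a link between the repeats and the changes was not tested. The sites printed below are a selection. RefSeq promoter windows on GRCh38.p14, from 250 bases before to 50 after a start site, were available for all 10 genes (16 windows, since some genes have several start sites). Capitals mark GAANNTTC or TTCNNGAA (2 units) or GAANNTTCNNGAA or TTCNNGAANNTTC (3 units), and both strands were searched. Matches of 3 units contain matches of 2. Each line is 30 bases, read 5′ to 3′ on the gene's strand.
HSPA8 distal site: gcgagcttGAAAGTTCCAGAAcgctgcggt
HSPA8 proximal site: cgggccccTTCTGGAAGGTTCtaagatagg
HSPA1A site: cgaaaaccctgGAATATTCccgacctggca
HSPA1B site: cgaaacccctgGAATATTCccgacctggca
HSP90AA1 site: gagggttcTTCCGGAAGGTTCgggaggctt
DNAJB1 site: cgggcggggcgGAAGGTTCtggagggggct

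The HSPA8 sites are at chr11:123062345-123062374 and chr11:123062170-123062199 (minus strand), with the capitals starting 230 and 55 bases before the start site. Those of HSPA1A and HSPA1B are at chr6:31815426-31815455 and chr6:31827622-31827651 (plus strand), 106 and 105 bases before it. The HSP90AA1 site printed is at chr14:102087111-102087140 (minus strand), 88 bases before the start site, and the DNAJB1 site printed at chr19:14518456-14518485 (minus strand), 77 bases before it. A further HSP90AA1 match began 68 bases before the start site. Further DNAJB1 matches began 47 bases before the start site and, in another window, just after one. Matches of HSP90AB1, HSPD1 and HSPB1 are not printed. The form with 3 units was found in 4 of the 16 windows, 1 each of HSPA8, HSP90AA1, HSP90AB1 and HSPD1, and in 172 of 35116 promoter windows (0.49%) in all. The form with 2 units was found in 9 of the 16 windows, from 8 of the 10 genes, and in 13.5% of all windows. HSPH1 and BAG3 had neither in their windows. A match describes the letters, and binding was not measured.

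Fewer reads came from these chaperone genes after 1 h of emetine. In the 3 untreated s4U libraries the 10 genes together took 0.932%, 0.960% and 0.882% of all gene reads, and in the emetine libraries 0.756%, 0.780% and 0.748%. The groups did not overlap, and the means were 0.925% ± 0.0396 and 0.761% ± 0.0169 (SD, n = 3). The difference was 0.163 percentage points (exact permutation test, two-sided, p = 0.1, which is the lowest p-value that this design with 3 per group can reach). The libraries without s4U held 0.843% (untreated) and 0.711% (emetine). HSPA8 alone made up 63.3% of the difference, HSPA1B 14.1%, HSP90AB1 12.4% and HSP90AA1 8.68%. BAG3 took a larger share in every emetine library than in any untreated library. The mean share of HSPH1 was also larger under emetine, but its groups overlapped. HSPH1 took 0.0232% in emetine replicate 3 and 0.0185% and 0.0187% in the other emetine libraries, against 0.0168% to 0.0187% in untreated libraries.

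**Figure D1:**
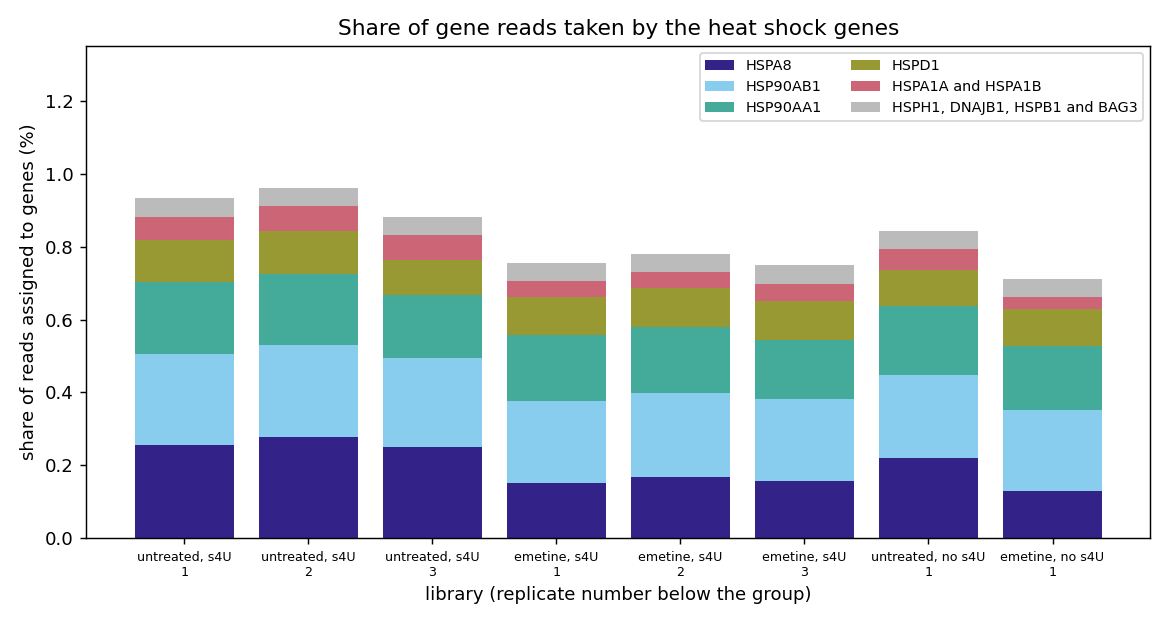
Share of the reads given to genes (y axis, percent) that each heat shock gene took in the 8 libraries of the 1 h experiment (x axis), as stacked bars from 0. The emetine bars with s4U reach 0.748% to 0.780%, below the untreated bars at 0.882% to 0.960%, and the dark HSPA8 block shrinks most.

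HSPA8 encodes HSC70, the constitutive HSP70 that folds nascent chains and uncoats clathrin (ENSG00000109971.14, chr11:123057489-123063230, minus strand). Its level was 2653, 2914 and 2623 CPM in the untreated s4U libraries and 1476, 1670 and 1438 CPM in the emetine libraries. Every emetine library lay below every untreated library. The log2 change was -0.84 (SE 0.114, adjusted p = 0.0106, edgeR quasi-likelihood test with Benjamini-Hochberg adjustment over 13776 genes); the mean CPM under emetine was 0.560 of the untreated mean. Without s4U the untreated library was at 2232 CPM and the emetine library at 1288 CPM, a ratio of 0.577 with no replicate. In bulk libraries, fewer cells with the transcript and less of it per cell cannot be told apart.

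HSPA1B encodes the stress-inducible HSP70 (ENSG00000204388.7, chr6:31827738-31830254, plus strand, a single exon). Its level was 673, 719 and 725 CPM in untreated and 426, 442 and 422 CPM in emetine libraries with s4U, and 579 and 335 CPM in the untreated and emetine libraries without it. Again the groups were apart, by more than the spread within either (log2 change -0.71, SE 0.0909, edgeR adjusted p = 0.00863), and the mean was 39.1% lower under emetine. Both calls depended on which libraries were used. Leaving out any 1 untreated library left log2 changes of -0.75 to -0.69 for HSPA1B and -0.86 to -0.79 for HSPA8, but edgeR adjusted p of 0.0731 to 0.0893 and 0.0731 to 0.105. Leaving out emetine replicate 1 gave an adjusted p of 0.0509 for HSPA8 and 0.0419 for HSPA1B, leaving out emetine replicate 2 gave 0.0176 and 0.0231, and leaving out emetine replicate 3 gave 1.76e-05 and 7.03e-06.

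Only 6 of the 13776 genes tested fell (0.0436%), and HSPA1B and HSPA8 ranked 2 and 3 among them by p-value. The 4 others were TNFRSF10D, ZC3HAV1, DEGS1 and MYADM. This count depended on the fit: 156 genes were lower by DESeq2, 193 with length and GC trends removed and 525 without emetine replicate 3, each time with HSPA1B and HSPA8 among them. Among the 363 genes that rose (2.64%) there were 0 members in edgeR (1, BAG3, at an unadjusted p under 0.05) and 0 in DESeq2. Counting genes by whether the groups overlapped, 5 members had every emetine library below every untreated library, against 15.2% of all genes tested, and 1 had every emetine library above, against 19.6%. The members' median log2 change was -0.23, against 0.03 over all genes tested. 8 of the 10 had a value below 0, as did 46.0% of all genes. These changes are relative to library size. Scaled instead to the spike-in reads, which took 0.304% to 0.728% of a library, the median of all genes moved to 0.71 and no gene was called lower. The changes were then -0.04 for HSPA1B and -0.20 for HSPA8, and 7 other members were above 0, so that only the position relative to other genes is stated here: relative to that median, HSPA1B was at -0.75 and HSPA8 at -0.91.

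HSPA1A, the neighboring and nearly identical copy of HSPA1B (ENSG00000204389.10, chr6:31815543-31817946, plus strand), received 27 to 133 reads per library, 509 in all, against 127378 for HSPA1B. Its level was 3.05, 3.81 and 2.41 CPM in untreated and 1.74, 2.197 and 1.16 CPM in emetine libraries. The log2 change of -0.85 (SE 0.278) did not pass the test (adjusted p = 0.153). The split between the copies is uncertain: a run of 1715 bases, from base 208 to 1922 of the 2517-base HSPA1B transcript, is identical in HSPA1A, and 1666 of the 2418 windows of 100 bases in HSPA1B (68.9%) also occur there. HSPA1A took 0.241% to 0.527% of the reads of the pair. Summed, the pair was at 676, 723 and 728 CPM in untreated and 428, 444 and 423 CPM in emetine libraries, with a log2 change of -0.72 (SE 0.0910, edgeR adjusted p = 0.00862).

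None of the other 7 members passed the test of level. HSP90AB1 (chr6:44246166-44253888, plus strand) and HSP90AA1 (chr14:102080742-102139699, minus strand) encode the constitutive and the inducible cytosolic HSP90. HSP90AB1 was at 2564, 2612 and 2562 CPM in untreated and 2210, 2317 and 2040 CPM in emetine libraries, without overlap, with a log2 change of -0.24 (SE 0.106, adjusted p = 0.231). HSP90AA1 overlapped narrowly, at 2031, 2043 and 1809 CPM against 1746, 1811 and 1478 CPM, with a log2 change of -0.23 (SE 0.120, adjusted p = 0.287), or -0.14 without emetine replicate 3 (adjusted p = 0.208). The 2 HSP90 genes thus lay nearer to 0 than both well-covered HSP70 genes, which was not itself tested.

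DNAJB1, the HSP40 that delivers clients to HSP70 (chr19:14514769-14560391, minus strand), was at 144, 160 and 158 CPM in untreated and 126, 143 and 125 CPM in emetine libraries, just short of overlapping (log2 change -0.23, adjusted p = 0.213). HSPH1, the HSP110 that exchanges nucleotide on HSP70 (chr13:31134973-31162388, minus strand), was at 176 to 195 CPM and 180 to 211 CPM, with a log2 change of 0.04. Its value was -0.15 when trends on transcript length and GC content were removed from each library. HSPB1, the small heat shock protein HSP27 (chr7:76302673-76304295, plus strand), was at 97.9 to 132 CPM and 58.7 to 101 CPM, the lowest value being that of emetine replicate 3, and its log2 change was -0.42 with that library and -0.20 without it (adjusted p = 0.247 and 0.157). HSPD1 (chr2:197486584-197516737, minus strand) was at 1009 to 1218 CPM and 971 to 1062 CPM (log2 change -0.15, adjusted p = 0.417).

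BAG3, the cochaperone that links HSP70 to selective autophagy (chr10:119651380-119677819, plus strand), was the 1 member whose emetine libraries all lay above the untreated ones. Its level was 61.1, 61.3 and 59.4 CPM in untreated libraries and 69.8, 67.4 and 70.1 CPM in emetine libraries, with a log2 change of 0.19 (SE 0.0784) that did not pass the test (adjusted p = 0.213). Without s4U it was at 54.7 CPM (untreated) and 67.3 CPM (emetine).

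**Figure D2:**
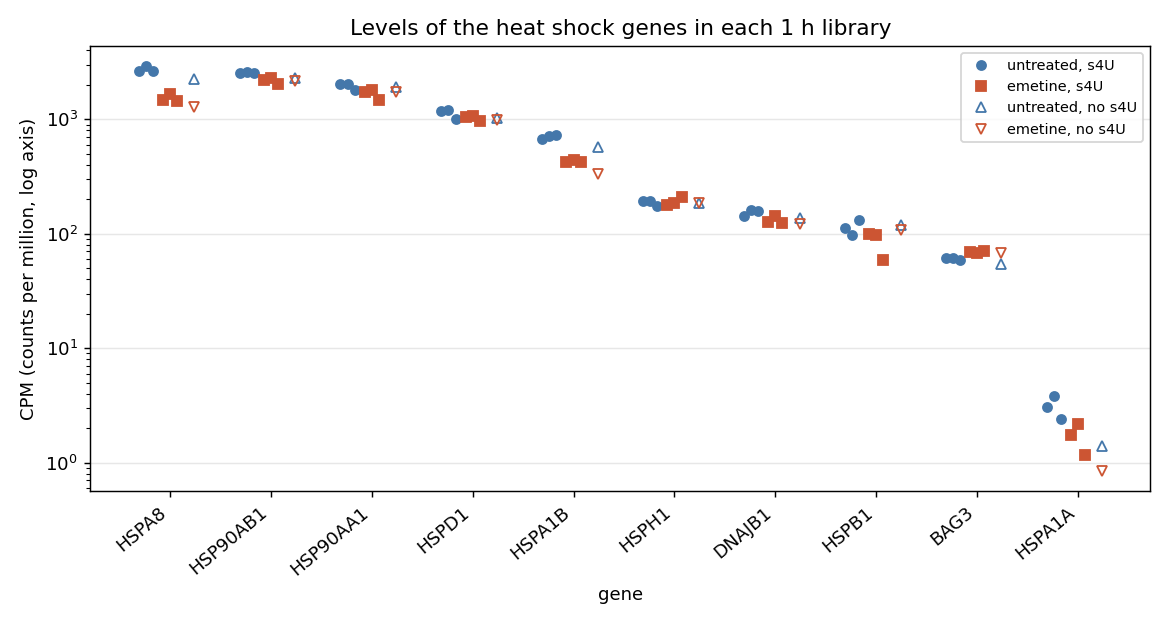
Level of each gene (x axis) in CPM (y axis, log scale) in the 8 libraries of the 1 h experiment: filled points with s4U, open points without, circles and upward triangles untreated, squares and downward triangles emetine. HSPA8 and HSPA1B are apart between treatments in both kinds of library, while HSP90AA1, HSPD1, HSPH1 and HSPB1 overlap.

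Per kilobase of the MANE Select transcript, the untreated s4U levels ordered as HSPA8 (1206 ± 70.7 CPM per kb, SD, n = 3), HSP90AB1 (1010 ± 11.1), HSP90AA1 (607 ± 40.9), HSPD1 (506 ± 49.7), HSPA1B (280 ± 11.4), HSPB1 (147 ± 21.8), DNAJB1 (68.6 ± 3.95), HSPH1 (35.8 ± 1.88), BAG3 (23.7 ± 0.408) and HSPA1A (1.29 ± 0.293). Neighbors in this order did not overlap across the 3 libraries. Under emetine HSP90AB1 stood first at 857 ± 54.6 CPM per kb and HSPA8 second at 675 ± 55.0, again without overlap. HSP90AA1 (520 ± 54.5) and HSPD1 (456 ± 21.0) did not differ beyond their spread there. Among 4621 genes that had 1000 reads or more in every one of the 8 libraries, those most like the HSPA1A and HSPA1B sum in log2 CPM were HSPA8 (Pearson r = 0.985), EIF2S3 (0.983), ARF3 (0.978), FHL1 (0.978) and DEGS1 (0.974). These 8 points share depth and composition within a library and fall into the 4 treatment groups.

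The fraction of new reads, estimated per gene and library from the number of T-to-C conversions per read, separated these genes into fast and slow. In untreated cells DNAJB1 (34.0% ± 9.001, SD, n = 3) and BAG3 (29.2% ± 7.60) had the most new reads. By mean, HSPA8 (12.6% ± 2.14), HSPA1B (8.63% ± 3.53), HSPH1 (7.93% ± 2.56) and HSP90AB1 (7.26% ± 1.28) came next. The HSPA8 libraries overlapped those of HSPA1B and lay above those of HSP90AB1, while HSPA1B, HSPH1 and HSP90AB1 overlapped each other. HSPD1 (4.57% ± 1.30), HSP90AA1 (4.18% ± 1.34) and HSPB1 (2.59% ± 0.186) had the lowest means. The libraries of HSPD1 and HSP90AA1 still overlapped those of HSPA1B and HSPH1. HSPA1A had too few reads for the minimum of 100 per library and was left out of the 10763 genes compared.

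The conversions themselves show the contrast. In untreated replicate 2, 2066 of 5572 DNAJB1 reads carried at least 1 conversion and 1317 carried 3 or more, while of 71293 HSP90AA1 reads 66732 carried none. Without s4U, 0 of 1290 BAG3 reads and 0.216% of DNAJB1 reads had 2 or more conversions in the untreated library, against 14.6% to 22.9% and 19.1% to 31.0% with s4U. If RNA pools were steady and s4U acted for the whole hour, mean half-lives were 1.78 h ± 0.661 for DNAJB1 and 2.11 h ± 0.646 for BAG3. Taken instead from the mean fraction new, the half-lives were 1.67 h for DNAJB1, 2.00 h for BAG3 and 5.16 h for HSPA8, against a median of 5.35 h over the genes compared, and 11.8%, 15.4% and 48.4% of those genes had shorter ones. HSPA8 was at 5.27 h ± 1.01, HSPA1B at 8.76 h ± 4.07, HSPH1 at 9.12 h ± 3.43, HSP90AB1 at 9.41 h ± 1.86, HSPD1 at 15.8 h ± 5.10, HSP90AA1 at 17.6 h ± 6.58 and HSPB1 at 26.5 h ± 2.01.

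The fraction of new reads fell in DNAJB1 and BAG3 under emetine. DNAJB1 was at 23.9%, 37.0% and 41.2% in untreated and 19.3%, 21.0% and 20.7% in emetine libraries, without overlap. Its logit changed by -0.69 (SE 0.216, adjusted p = 0.0462, limma over 10763 genes). BAG3 was at 22.1%, 28.4% and 37.2% against 15.7%, 15.6% and 15.9%, also without overlap, and its logit changed by -0.77 (SE 0.212, adjusted p = 0.0167). HSPB1 did not overlap either but did not pass the test. How many of all genes lacked overlap in fraction new was not counted. Across all genes compared, 520 (4.83%) fell and 23 (0.214%) rose, and the median change was -0.16. Untreated replicate 1 was low for the typical gene as well: the median fraction new was 9.26% there, 12.3% and 14.7% in the other untreated libraries and 10.3% to 11.04% in the emetine libraries. With each library centered on its median the changes were -0.56 (limma adjusted p = 0.0232) and -0.65 (0.00907). Without untreated replicate 1 the adjusted p were 0.00262 and 0.00467. Leaving out any other library ended both calls (limma adjusted p of 0.190 to 0.316 for DNAJB1 and 0.1003 to 0.168 for BAG3). Both calls also ended at a minimum of 50 reads per library (limma adjusted p = 0.120 and 0.0622), and that of DNAJB1 ended when reads of 2 or more conversions were used (0.0820).

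The other 7 members compared did not pass this test. HSP90AA1 (-0.47), HSPD1 (-0.33), HSPH1 (-0.29), HSPB1 (-0.26), HSP90AB1 (-0.18) and HSPA8 (-0.11) had values below 0 on the logit scale. HSPA1B had a value of 0.30 (SE 0.222, adjusted p = 0.582), with 5.09%, 8.64% and 12.2% in untreated and 9.97%, 9.61% and 12.6% in emetine libraries. The HSPA1B groups overlapped widely.

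**Figure D3:**
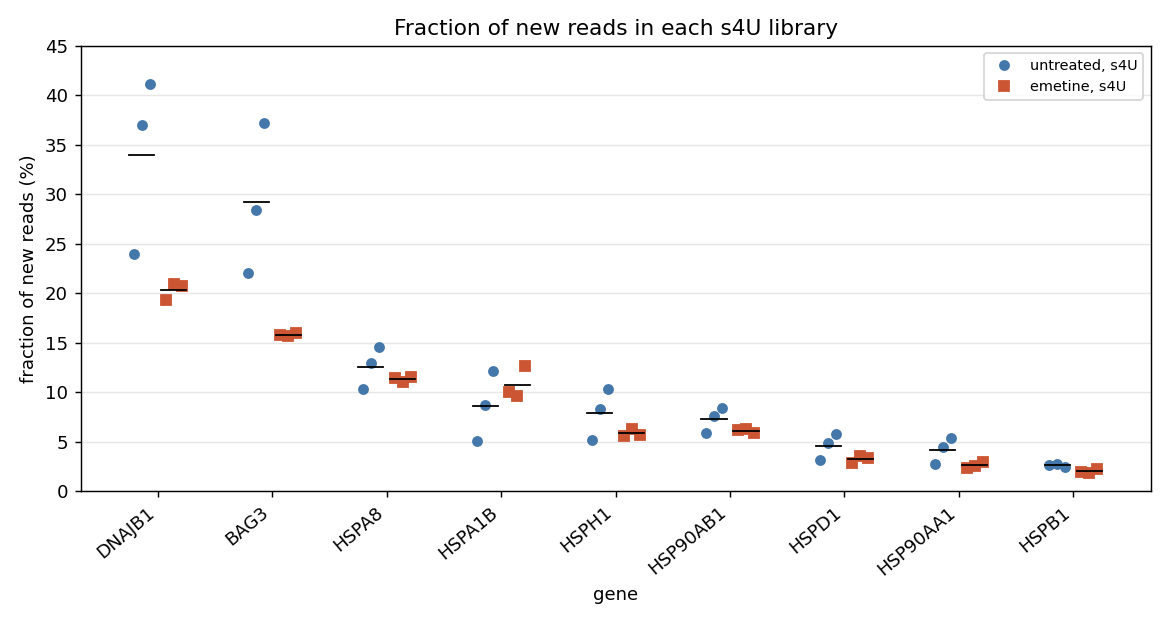
Fraction of new reads (y axis, percent, from 0) of the 9 genes compared (x axis) in the 3 untreated (circles) and 3 emetine (squares) libraries with s4U, with the mean as a line. DNAJB1 and BAG3 are highest and lie lower in all 3 emetine libraries, and the untreated libraries spread more than the emetine libraries for most genes.

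Each level was split into labeled (new) and unlabeled (old) reads. Labeled reads are CPM times the fraction new, and 0.5 CPM was added before log2. Of 10763 genes, 68 (0.632%) fell and 28 (0.26%) rose in labeled reads, and 3 members were among those that fell. HSPA8 had 273, 376 and 381 labeled CPM in untreated and 169, 183 and 165 in emetine libraries, a log2 change of -0.98 (SE 0.190, limma adjusted p = 0.000205). DNAJB1 had 34.3, 59.0 and 65.1 labeled CPM against 24.3, 30.1 and 25.8 (log2 change -0.92, SE 0.216, limma adjusted p = 0.00694). HSP90AA1 had 55.5, 90.8 and 97.3 against 40.8, 45.2 and 43.0 (log2 change -0.87, SE 0.209, limma adjusted p = 0.0103). None of the 3 overlapped between groups, but neither did HSP90AB1, HSPB1 and BAG3, which did not pass the test. How many of all genes lacked overlap in labeled reads was not counted. All 9 members had a value below 0, from -0.98 to -0.32 with a median of -0.65, against a median of -0.14 over all genes and 69.0% of all genes below 0. The 3 calls depended on the libraries used. Without untreated replicate 2 or emetine replicate 1, 0 of the 3 held (limma adjusted p of 0.163 to 0.632 and of 0.0583 to 0.341). DNAJB1 and HSP90AA1 also lost theirs without untreated replicate 3 (limma adjusted p = 0.0890 and 0.0999) or emetine replicate 3 (0.0819 and 0.0580), and HSP90AA1 without emetine replicate 2 (0.0771). Without untreated replicate 1, 8 members were called lower, but so were 1736 of 10775 genes (16.1%).

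In unlabeled reads 10 of the 10763 genes fell (0.0929%) and 786 rose (7.3%). HSPA1B, with the smallest p-value of the 10, had 638, 657 and 637 unlabeled CPM in untreated and 384, 400 and 368 in emetine libraries, a log2 change of -0.75 (SE 0.0964, limma adjusted p = 0.00281). HSPA8 had 2380, 2537 and 2243 against 1308, 1487 and 1272 (log2 change -0.82, SE 0.126, limma adjusted p = 0.00571). The unlabeled reads of HSPA1B were thus 40.4% lower and those of HSPA8 43.2% lower in libraries taken after 1 h of emetine. New reads made up 8.63% and 12.6% of the reads of these genes in untreated libraries over the same hour. No library was taken at the start of the hour, and a change in decay was not tested. These unlabeled values are relative to library size and were not rescaled to the spike-in reads. Leaving out any 1 library kept HSPA1B called (limma adjusted p at most 0.0311), and HSPA8 lost its call without untreated replicate 2 (0.0511).

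BAG3 rose in unlabeled reads, from 47.6, 43.8 and 37.3 CPM in untreated to 58.8, 56.8 and 58.9 CPM in emetine libraries. Its log2 change was 0.44 (SE 0.111, limma adjusted p = 0.0456), and the call held without untreated replicate 1 (0.0492) or emetine replicate 3 (0.00822) and was lost without any 1 of the other 4 libraries (limma adjusted p of 0.0689 to 0.186). It was also lost at a minimum of 500 reads (limma adjusted p = 0.0740), with reads of 2 or more conversions (0.0518) and with a term for replicate number (0.122). DNAJB1 had 109, 101 and 93.1 unlabeled CPM against 102, 113 and 98.6, with a log2 change of 0.05 (SE 0.101) and overlapping groups. Of the 2 kinds of reads, HSPA8 thus fell in both, HSPA1B passed the test in unlabeled reads, and DNAJB1 and HSP90AA1 passed it in labeled reads. Whether the changes differ between members was not tested.

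**Figure D4:**
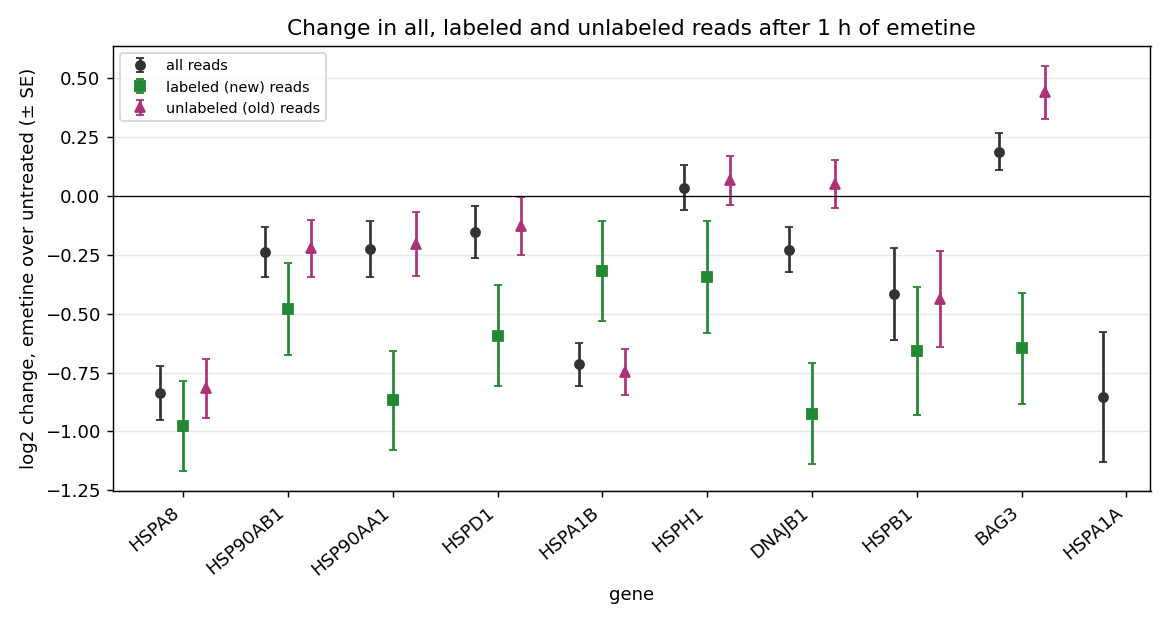
Log2 change of all reads (circles), labeled reads (squares) and unlabeled reads (triangles) between emetine and untreated s4U libraries (y axis, with SE) for each gene (x axis). HSPA8 is near -0.8 or lower in all 3 measures, the unlabeled value of HSPA1B is -0.75 and its labeled value -0.32, and BAG3 is above 0 in unlabeled and below 0 in labeled reads.

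Levels with and without s4U were compared over both treatments. HSPA1A, HSPA1B, HSPA8, DNAJB1 and BAG3 were lowest in the library without s4U in both treatments. Under emetine, DNAJB1 was lower by little, at 122 CPM against a lowest of 125 CPM with s4U. BAG3 was lower by still less there, at 67.33 CPM against a lowest of 67.39 CPM. How many of all genes had this order was not counted, and each treatment had 1 library without s4U. HSPA1B was at 579 CPM without s4U against 673 to 725 CPM with it in untreated libraries. Under emetine it was at 335 CPM against 422 to 442 CPM. The log2 difference, s4U minus none, was 0.32 (SE 0.0850) for HSPA1B, 0.27 (SE 0.105) for HSPA8 and 1.09 (SE 0.303) for HSPA1A, whose counts were low. None passed edgeR's test over 14102 genes (adjusted p of 0.783, 0.895 and 0.827), in which no gene was called, 673 had an unadjusted p under 0.05, and DESeq2 called 25. HSPA1B was among those 25 (DESeq2 adjusted p = 0.0131), and edgeR called it without emetine replicate 3 (adjusted p = 0.0224). The remaining 7 members had values of -0.20 to 0.13. The emetine change did not differ detectably with s4U: the interaction was 0.07 (SE 0.181) for HSPA1B and -0.04 (SE 0.226) for HSPA8 on the log2 scale, and no gene was called (597 at an unadjusted p under 0.05, 6 by DESeq2). With 1 library without s4U per treatment, the SEs of the interaction are large.

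Among other genes of the chaperone network, 60 in 9 lists, few were called in level. Of 57 tested, 1 rose and 0 fell in edgeR, against 2.64% and 0.0436% of all genes tested. Their median log2 change was -0.16, against 0.03 over all genes tested. At an unadjusted p under 0.05, 9 were lower and 3 higher, against 958 lower and 2056 higher of all 13776 genes. DESeq2 called 2 of them lower, the HSP70 gene HSPA2 and the HSP70 cofactor ST13, against 156 of all genes. The gene that rose was HSF2, a heat shock factor that partners HSF1, at 43.4 ± 0.592 CPM in untreated and 60.2 ± 1.44 in emetine libraries (SD, n = 3; log2 change 0.47, SE 0.0804, edgeR adjusted p = 0.0224). Its unlabeled reads rose too (log2 change 0.63, limma adjusted p = 0.0101). HSF1 itself had a log2 change of -0.14 (SE 0.0947) and its binding partner HSBP1 -0.23 (SE 0.109), and neither passed.

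By list, the median log2 change in level was -0.22 for 6 other cytosolic HSP70, HSP110 and small heat shock genes tested. It was -0.12 for 7 J-domain genes, -0.14 for 8 HSP70 cofactors and -0.15 for 10 HSP90 cochaperones. The median was -0.20 for 8 subunits of TRiC, the cytosolic chaperonin, and -0.23 for 6 genes listed as mitochondrial chaperones. For 6 chaperones of the endoplasmic reticulum it was -0.11, and for 3 further HSF1 targets -0.21. All 8 TRiC subunits, from -0.29 to -0.13, and all 6 genes of the mitochondrial list, from -0.35 to -0.02, had values below 0. The mitochondrial list includes CLPP, which encodes a protease subunit, at -0.33. None of the genes in these lists passed the test, and 46.0% of all genes tested had values below 0. HSPE1, the partner of HSPD1 in the HSP60 chaperonin, was at -0.35 (SE 0.182, edgeR adjusted p = 0.278). HSPA5, the HSP70 of the endoplasmic reticulum, was at -0.20 (SE 0.0956). In fraction new, 0 of 55 listed genes tested were called by limma. At an unadjusted p under 0.05, 4 were lower and 0 higher, against 1655 lower and 124 higher of all 10763 genes. In labeled reads 1 of the 55 fell, against 0.632% of all genes: FKBP4, an HSP90 cochaperone (log2 change -0.86, limma adjusted p = 0.0197). In unlabeled reads 2 of the 55 rose, against 7.3% of all genes. These were HSF2 and BAG5, a relative of BAG3 (BAG5 log2 change 0.46, limma adjusted p = 0.0479).

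For the 2 h experiment only the authors' mean of normalized counts over its libraries was used, which has no spread and no comparison between doses here. It listed 9 of the 10 genes and gave no value for HSPB1. The authors' means were 42105 for HSP90AA1, 34819 for HSPA8, 25074 for HSP90AB1, 17359 for HSPD1, 5565 for HSPH1, 4099 for HSPA1B, 1320 for DNAJB1, 609 for BAG3 and 230 for HSPA1A. Per kilobase HSPA8 stood first in this mean, which pools untreated and emetine libraries, at 15379 per kb, and HSPA1A last, at 96.0 per kb. HSPA1A made up 5.32% of the pair with HSPA1B in this table, against 0.398% over the 8 libraries of the 1 h table, which was prepared with another kit and counted with another tool.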

How the data were processed

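The authors processed the 1 h TL-seq reads with cutadapt (adapters), hisat-3n (mapping, hg38) and bam2bakR, which counted T-to-C conversions. Per the file headers, the deposited table gives raw read counts by library, gene, T positions and conversions. The 2 h reads were counted by the authors with htseq-count, and the deposited signal is their mean of counts normalized to spike-in reads. Their log2 fold changes and p-values by dose were not used.

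Members and lists were chosen with earlier results of these data known. Named genes were all members, up to 4 called genes per list with the smallest p-values for level or fraction new, and the 5 genes most like the HSPA1 pair. BAG5, FKBP4 and the list genes with values that passed no test, and the genes named beside the 6 that fell, were named after their values were seen.

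Counts were compared with edgeR 4.0.16 (TMM, quasi-likelihood) for genes over 100 counts. Reads given to no gene, to several or to spike-ins were left out (81.06% to 82.28% of reads were kept). Fraction new, a maximum likelihood mixture of 2 binomials bounded between 0.001 and 0.999, and labeled and unlabeled CPM were compared with limma 3.58.1 at a minimum of 100 reads per library. Half-lives are −ln(2) times 1 h over ln(1 − fraction new). Calls are at an adjusted p under 0.05 (Benjamini-Hochberg). Scripts were tested on simulated data. Alternatives covered DESeq2 1.42.0, other scaling, filters, pseudocounts, length and GC trends (mgcv 1.9.3), a replicate block and leaving out each library. The shares of gene reads without s4U and half-lives from reads of 2 or more conversions were alternatives chosen after seeing the data. Coordinates are from GENCODE 44 on GRCh38, the build hg38 names. No molecular identifiers are described, so counts carry amplification as well as sampling error.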

Additional observations from a re-analysis of the deposited data

How the results depend on the processing

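The call rule gave 363 genes higher and 6 lower in level, and other choices moved these counts and the members' calls as follows; the causes were not tested. DESeq2 called 820 higher and 156 lower, and removing length and GC trends gave 566 and 193, with HSPH1 at -0.15; both kept HSPA8 and HSPA1B called. Spike-in scaling called 60 genes higher and 0 lower, 0 members lower, and put DNAJB1 at 0.42, HSP90AA1 at 0.43, HSP90AB1 at 0.43, HSPB1 at 0.28 and HSPD1 at 0.51. Fraction new at a minimum of 50 reads called 14 genes higher, 298 lower and 0 members, and at 500 reads 14 higher and 227 lower. With reads of 2 or more conversions, 330 genes were lower with 1 member (BAG3), and in unlabeled reads 0 members were higher. Centering called 126 genes higher in fraction new and put HSPA8 at 0.014. In unlabeled reads, 500 reads as the minimum called 225 genes higher, 4 lower and 0 members higher. For s4U, DESeq2 called 7 genes higher, 18 lower and 1 member higher, no count filter called 2 lower, and untreated libraries alone 3 higher and 32 lower, with HSP90AA1 at 0.034. DESeq2 called 6 genes higher for the interaction.

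Whether replicate numbers pair the samples is not known: same-numbered libraries had correlations of 0.061, -0.033 and -0.20 between their deviations. These deviations carry the length trend of emetine replicate 3, so they cannot show whether samples shared a culture or batch. With the replicate block, level called 75 genes higher and 3 lower with 1 member, HSPA8 (HSPA1B adjusted p = 0.0510, edgeR), fraction new 40 higher, and unlabeled reads 350 higher with 0 members higher. HSP90AA1 was then at 0.043 for s4U. The replicate block with length and GC trends removed gave 42 lower in level and HSPH1 at -0.15.

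Leaving out 1 library at a time gave these ranges. In level, 4 to 1367 genes were higher, 0 to 525 lower and 0 to 2 members lower, the high ends of the gene counts without emetine replicate 3, and HSPH1 ran from -0.031 to 0.082. In fraction new, 10 to 42 genes were higher, 98 to 2522 lower and 0 to 4 members lower. Labeled reads gave 13 to 64 genes higher, 2 to 1736 lower and 0 to 8 members lower, the high ends of lower genes and members without untreated replicate 1. Unlabeled reads gave 281 to 1472 higher, 4 to 377 lower, 0 to 1 members higher and 1 to 2 members lower, with DNAJB1 from -0.0071 to 0.11 and HSPH1 from -0.0010 to 0.11. For s4U, 0 to 8 genes were higher, 0 to 33 lower and 0 to 1 members higher, with HSP90AA1 from -0.049 to 0.036. For the interaction 0 to 177 genes were higher, with HSPA8 from -0.097 to 0.0051. The difference in share of gene reads ran from 0.145 to 0.184 percentage points. HSPA1A, at 27 to 133 reads per library, is limited by depth.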
